A study of Mus musculus with 4 samples.

Results

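The Slc25 family encodes the mitochondrial carriers, proteins that for the most part move metabolites across the inner mitochondrial membrane. Members were taken as the protein-coding genes of the RefSeq annotation of mouse GRCm38.p6, the assembly that mm10 shares, whose symbol is Slc25a followed by a number. This gave 47 of 21887 protein-coding genes. The list was fixed by symbol and used no measured value, although the family was chosen with earlier results of these data known. Family genes under other names, such as the uncoupling protein genes Ucp1, Ucp2 and Ucp3, are treated further on as neighbours of the family.

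The data come from 2 chromatin immunoprecipitation sequencing (ChIP-seq) libraries, which record where a transcription factor sits on DNA. Slug (gene Snai2) was mapped with a rabbit monoclonal antibody in pBl.1G, labelled an epithelial line with high Slug. Snail (gene Snai1) was mapped in pBl.3G, labelled a mesenchymal line with high Snail, using an antibody whose label names both SNAIL and SLUG. Both lines were derived from the MMTV-PyMT model, in which a mammary tumour virus promoter drives the polyoma middle T oncogene, and neither received a treatment. The labels do not say whether a line is a single clone. There was 1 library per factor, so no comparison has a replicate error or a test. Factor, antibody and cell line cannot be told apart in any difference between the libraries. Where both factors are said to have peaks at a gene, the peaks come from different lines. Joint binding in the same cells was not tested, nor was Slug signal in the Snail list. The files are peak lists and hold no expression levels, so the epithelial and mesenchymal labels were not checked against markers here. The Slug list held 41612 peaks with a median width of 206 bp, and the Snail list 28375 peaks with a median width of 722 bp. Sequencing depth is unknown. The score of a peak is the value given by the authors' peak caller. It ranks peaks within 1 list only, and Slug and Snail scores are not compared with each other.

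Mitochondrial carriers are encoded in the nucleus, made in the cytosol and, for most members, inserted into the inner membrane by a dedicated import path. Many of them exchange or import a known group of substrates, such as ADP and ATP, phosphate, carboxylates of the citric acid cycle, amino acids, cofactors, or iron. A few members sit elsewhere, in peroxisomes or in the outer membrane. Snail and Slug are zinc finger factors that bind E-box sequences with the core CAGGTG and are best known as repressors of epithelial genes. A peak was assigned to a gene when its midpoint lay within 1 kb, or within 10 kb, of either end of the RefSeq gene span.

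The promoters of 7 members are shown first. Of these members only Slc25a31 had no peak of either factor within 10 kb. They comprise the 3 ADP/ATP carrier genes, the 2 pyrimidine nucleotide carrier genes, Slc25a30, and Slc25a42, which had peaks of both factors within 1 kb. They were chosen after their peaks and sequences had been seen, from members with 1 annotated start that lies at the outer end of the gene and with no other gene in the window. Each line gives the 250 bases before the RefSeq start (GRCm38.p6), 5′ to 3′ on the gene's own strand. Capitals mark CAGGTG, the ETS-type CCGGAAG and the CCAAT box on either strand. The consensus site of nuclear respiratory factor 1 was searched too and is in none of them.
Slc25a4 (chr8:46211063-46211312, minus strand): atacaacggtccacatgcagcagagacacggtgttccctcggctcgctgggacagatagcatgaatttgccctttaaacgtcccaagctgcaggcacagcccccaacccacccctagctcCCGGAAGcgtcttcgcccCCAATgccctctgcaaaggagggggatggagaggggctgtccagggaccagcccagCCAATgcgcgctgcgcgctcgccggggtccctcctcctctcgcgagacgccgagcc
Slc25a5 (chrX:36795347-36795596, plus strand): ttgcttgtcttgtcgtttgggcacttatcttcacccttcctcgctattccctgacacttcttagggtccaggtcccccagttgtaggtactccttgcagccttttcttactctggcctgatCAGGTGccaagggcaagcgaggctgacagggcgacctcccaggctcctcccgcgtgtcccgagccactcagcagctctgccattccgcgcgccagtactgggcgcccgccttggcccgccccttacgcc
Slc25a31 (chr3:40708621-40708870, plus strand): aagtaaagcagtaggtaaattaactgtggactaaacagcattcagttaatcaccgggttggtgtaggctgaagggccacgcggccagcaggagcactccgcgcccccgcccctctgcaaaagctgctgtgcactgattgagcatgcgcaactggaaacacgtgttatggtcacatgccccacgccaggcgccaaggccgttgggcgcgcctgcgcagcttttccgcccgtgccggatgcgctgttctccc
Slc25a33 (chr4:149774268-149774517, minus strand): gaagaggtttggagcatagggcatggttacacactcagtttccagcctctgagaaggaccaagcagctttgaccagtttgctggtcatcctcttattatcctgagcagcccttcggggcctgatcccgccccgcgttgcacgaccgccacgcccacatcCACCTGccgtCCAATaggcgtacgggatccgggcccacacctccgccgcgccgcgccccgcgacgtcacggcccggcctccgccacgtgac
Slc25a36 (chr9:97111042-97111291, minus strand): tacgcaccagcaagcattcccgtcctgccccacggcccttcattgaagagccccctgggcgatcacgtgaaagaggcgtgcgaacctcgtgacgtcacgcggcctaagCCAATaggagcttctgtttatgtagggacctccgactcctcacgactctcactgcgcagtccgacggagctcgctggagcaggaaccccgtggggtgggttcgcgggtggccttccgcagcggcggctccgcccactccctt
Slc25a30 (chr14:75787038-75787287, minus strand): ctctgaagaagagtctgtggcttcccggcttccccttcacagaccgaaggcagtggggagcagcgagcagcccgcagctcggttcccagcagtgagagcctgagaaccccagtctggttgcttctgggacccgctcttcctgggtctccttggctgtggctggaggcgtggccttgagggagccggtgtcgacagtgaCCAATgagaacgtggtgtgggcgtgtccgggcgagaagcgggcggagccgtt
Slc25a42 (chr8:70212282-70212531, minus strand): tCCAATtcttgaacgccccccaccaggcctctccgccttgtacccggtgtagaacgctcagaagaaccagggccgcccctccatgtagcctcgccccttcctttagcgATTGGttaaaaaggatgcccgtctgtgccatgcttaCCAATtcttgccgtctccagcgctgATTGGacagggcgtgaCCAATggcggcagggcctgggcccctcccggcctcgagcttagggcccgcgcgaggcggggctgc

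The first question was how often the carrier genes lay near a peak of either factor. Snail peaks were at the ends of most members: 41 of 47 (87.2%, 95% Wilson interval 74.8 to 94.0) had one within 1 kb, against 48.7% of all protein-coding genes. Within 10 kb the count was 44 (93.6%, 82.8 to 97.8), against 64.1%. Fewer members had a Slug peak, 11 within 1 kb (23.4%, 13.6 to 37.2), against 12.1% of all genes, and 32 within 10 kb (68.1%, 53.8 to 79.6), against 47.6%. The intervals cover counting over genes only, and neighbouring genes can share a peak.

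Within 1 kb, both factors had peaks at 11 members (23.4%, against 8.88% of all genes) and Snail alone at 30 (63.8%, against 39.8%). Slug alone was found at 0 members, against 3.26%, and neither factor at 6 (12.8%, against 48%). Those 6 were Slc25a2, Slc25a18, Slc25a21, Slc25a31, Slc25a47 and Slc25a54.

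Each member also falls into 1 of 4 states within 10 kb. Both factors had peaks near 31 members (66.0%, against 36.8% of all genes) and Snail alone near 13 (27.7%, against 27.3%, about the background). Slug alone was found near Slc25a47 only (2.13%), against 10.8% of all genes. Neither factor had a peak near Slc25a18 and Slc25a31, or 4.26% of members, against 25.1% of all genes. An overlapping pair of a Slug and a Snail peak lay within 10 kb of 10 members (21.3%, against 14.9%). The 13 with Snail alone were Slc25a1, Slc25a2, Slc25a5, Slc25a14, Slc25a15, Slc25a24, Slc25a25, Slc25a26, Slc25a34, Slc25a36, Slc25a40, Slc25a41 and Slc25a45.

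**Figure D1:**
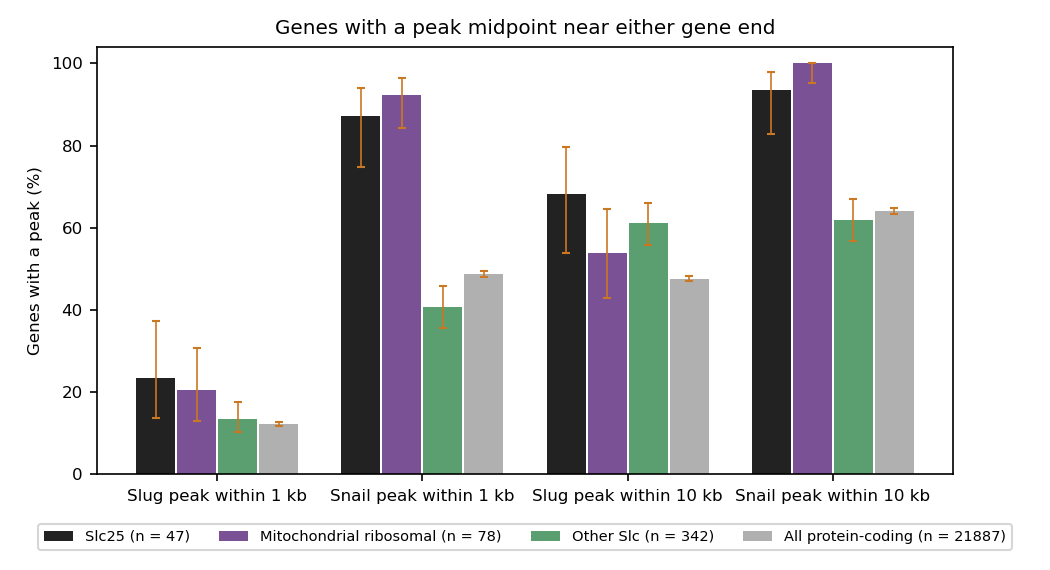
Share of genes (%) with a peak midpoint within 1 kb or 10 kb of either gene end for the 47 Slc25 genes, 78 mitochondrial ribosomal protein genes, 342 other Slc genes and all 21887 protein-coding genes; error bars are 95% Wilson intervals over genes. The Slc25 bars for Snail stand at 87.2% and 93.6%, near those of the mitochondrial ribosomal genes.

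Another pair of gene sets was placed beside the members, with counts and no test. Of the 78 mitochondrial ribosomal protein genes, whose products also work inside mitochondria, 92.3% (84.2 to 96.4) lay within 1 kb of Snail and 20.5% (13.04 to 30.8) within 1 kb of Slug. The 342 other Slc genes, which encode transporters of other membranes for the most part, had the corresponding shares of 40.6% (35.6 to 45.9) and 13.5% (10.2 to 17.5). On the Snail side the carriers' share thus lay near that of the mitochondrial set and above that of the remaining transporters, whose interval does not reach it. For Slug within 10 kb the 3 shares were 68.1% in the carriers, 53.8% (42.9 to 64.5) in the ribosomal set and 61.1% (55.9 to 66.1) in the other Slc genes, with intervals that overlap.

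Although Snail peaks were frequent at carrier genes, their scores were not high for gene-end peaks. The highest Snail score within 1 kb had a median of 578 over the 41 members, from 69.6 at Slc25a34 to 2108 at Slc25a4, against a median of 722 over the 10662 protein-coding genes with such a peak. Of the 41 members, 11 (26.8%) had a highest score between 200 and 400, where 12.5% of all such genes lay. Between 800 and 1600 the shares were 26.8% and 37.8%. For Slug the medians lay the other way. The median of the highest Slug score within 1 kb was 125 over 11 members and 81.8 over all 2657 genes with one, and within 10 kb it was 116 over 32 members and 105 over all 10422. The upper Slug scores within 10 kb were not shifted up as a whole. Between 100 and 200 lay 43.8% of the 32 members and 27.2% of all such genes. Between 200 and 400 the shares were 9.38% and 18.35%, and between 400 and 800 they were 6.25% and 5.32%. No member reached 800.

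**Figure D2:**
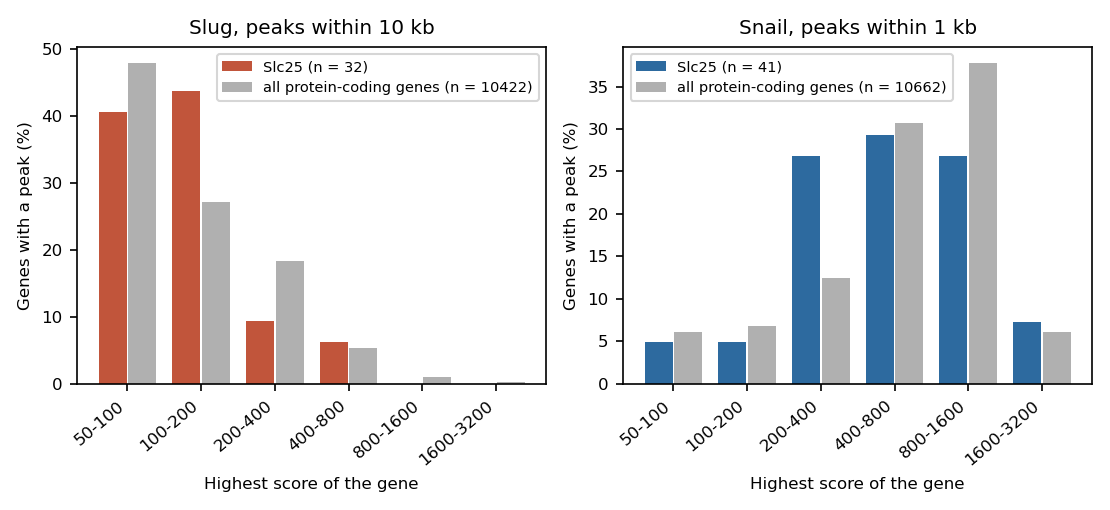
Percentage of genes by their highest peak score, in bins, among genes with a Slug peak within 10 kb (left) and a Snail peak within 1 kb (right), for Slc25 genes (coloured) and all protein-coding genes (grey). For Snail, 26.8% of the Slc25 genes and 12.5% of all genes lie in the bin from 200 to 400.

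The position of the peaks could be read from strand for the 36 members that have a start in the RefSeq promoter table; the other 11 were left out of this step. Snail sat on the starts. A Snail peak lay within 1 kb of an annotated start in 29 of 36 members (80.6%), against 51.8% of the 17492 protein-coding genes with a start. At the start end of the gene 30 members had a Snail peak, and in 29 of them the highest-scoring one covered a start. Its midpoint lay upstream of the nearest start in 15 and at or downstream of it in 15, with a median offset of 1 bp, and within 500 bp in 27. Lying on the start was not particular to the carriers. Among promoter windows (defined below) with a Snail peak within 1 kb of the start, a Snail peak touched 91.67% in members. Over all protein-coding genes the corresponding share was 96.98%. The 7 members without a Snail midpoint within 1 kb of a start were Slc25a11, Slc25a18, Slc25a21, Slc25a31, Slc25a34, Slc25a47 and Slc25a54. Of these, Slc25a11 had its start covered by a peak 3263 bp wide, whose midpoint lay at an offset of -1119 bp.

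Slug peaks did not gather on the starts of the carriers. A Slug peak lay within 1 kb of an annotated start in 4 of the 36 members (11.1%), against 10.3% of all genes, so this share was at the background. These were Slc25a16, Slc25a23, Slc25a28 and Slc25a42. The end opposite the start had a Slug peak within 1 kb in 3 members (8.33%, against 3.13% of all genes), namely Slc25a3, Slc25a12 and Slc25a29. A Snail peak was at that end in 3 members as well (8.33%, against 6.05%). Within 5 kb of the nearest start there were 13 Slug peaks, 11 upstream and 2 downstream, or 84.6% upstream, against 51.7% of the 4937 pairs of a gene and a Slug peak over all genes with a start. The 38 Snail peaks there were split into 17 upstream and 21 downstream (44.7% upstream, against 46.4% of 12278 pairs). Within 10 kb the upstream share of the 19 Slug peaks was 68.4%, against 51.3%. None of the 46 promoter windows of these members (250 bases before to 50 after a start) was touched by a Slug peak, against 3.97% of all 21263 windows. A Snail peak touched 34 (73.9%, against 49.2%).

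**Figure D3:**
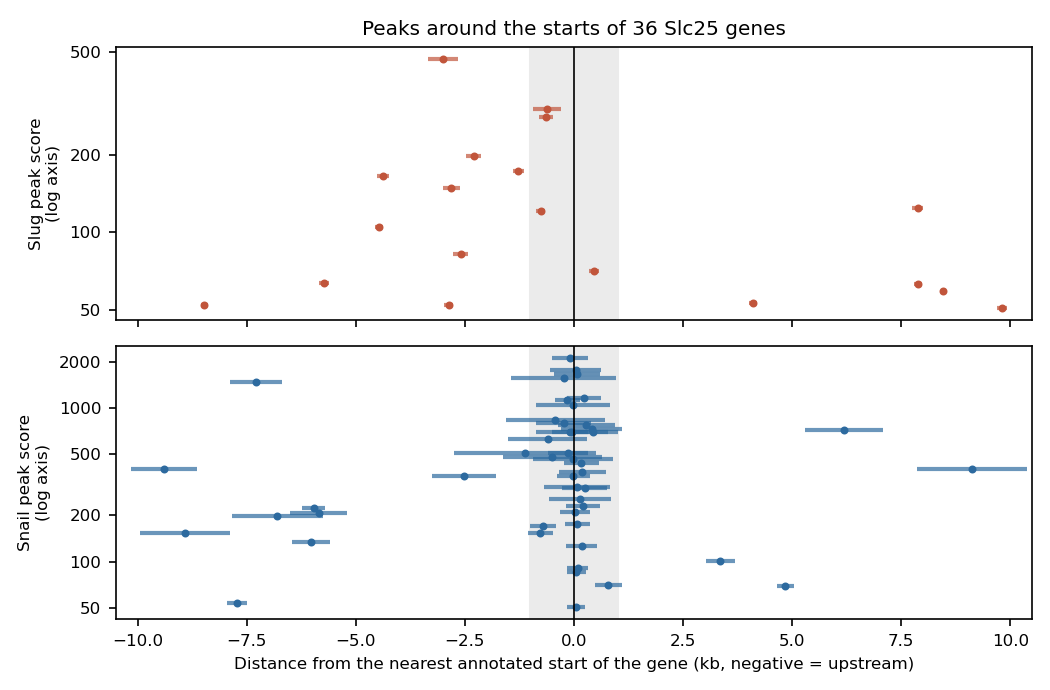
Peaks within 10 kb of the nearest annotated start of the 36 Slc25 genes with a known start: distance of the midpoint from the start in kb (negative is upstream, bars span the peak width) against the score on a log axis, Slug above and Snail below, with the grey band marking 1 kb on each side. The Snail peaks pile up at the start line and the 4 Slug peaks inside the band lie off it.

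All 11 members with a Slug peak within 1 kb also had a Snail peak within 1 kb, where 87.2% of the whole family had one. Of all genes with a Slug peak there, 73.1% had a Snail peak. In the mitochondrial ribosomal set 15 of 16 such genes had one (93.75%). In 6 of the 11 a Slug and a Snail peak overlapped (54.5%, against 76.0% of the 1943 genes with both). As a share of all members those 6 are 12.8%, against 6.75% of all genes. In the remaining 5 the factors sat at opposite ends of the gene (45.5%, against 11.2%). The overlapping group included Slc25a16, Slc25a23, Slc25a28, Slc25a35 and Slc25a42, and the opposite-end group was Slc25a3, Slc25a12, Slc25a29, Slc25a46 and Slc25a51.

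Among the overlapping sites, that of Slc25a28 had the highest Slug score. Slc25a28 encodes mitoferrin 2, which brings iron into mitochondria (chr19:43663801-43675006). Its Slug peak, chr19:43675190-43675829 with a score of 302, lay entirely inside a Snail peak of 2407 bp, chr19:43673912-43676318 with a score of 1564, which was among the highest 2.56% of its list. Slc25a16, a carrier linked to coenzyme A, had a Slug peak with a score of 281 at chr10:62919833-62920139, upstream of its start. That Slug peak met the Snail peak chr10:62920048-62920949, score 512, which covered the start.

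At Slc25a23, Slc25a35 and Slc25a42 the Snail score of the overlapping peak was 306 or less. Slc25a23, which encodes an exchanger of ATP-Mg for phosphate, had a Slug peak of score 122 within the Snail peak chr17:57060344-57060927 of score 153, centred 0.716 and 0.726 kb outside the gene. Slc25a35 had a Slug peak of score 135 inside a Snail peak of score 306 (chr11:68967526-68968473). Slc25a42, the mitochondrial carrier of coenzyme A, had a Slug peak of score 70.5 downstream of its start. It lay inside the Snail peak chr8:70211681-70212467 of score 231, which covered the start. A second Snail peak of Slc25a42, of score 172, lay upstream. Its printed promoter overlaps the first of these Snail peaks, ends before the second, and holds 5 CCAAT boxes and no CAGGTG.

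At opposite ends, the Snail peak was at the start and the Slug peak at the far end wherever the strand was known. Slc25a3, the phosphate carrier that supplies ATP synthase (chr10:91116574-91124046), had a Snail peak over its start, chr10:91123148-91124828 with a score of 1050, and a Slug peak beyond its other end, chr10:91115963-91116207 with a score of 125. Slc25a12, an aspartate/glutamate carrier of the malate-aspartate shuttle, had Slug at chr2:71274313-71274562 (score 133), 93318 bp from its start, and Snail at the start with a score of 300. Slc25a29, a carrier of basic amino acids, had Slug at chr12:108825941-108826167 scored at 50.9 and ranked 40305 of 41612, and Snail over its start at 700. The strand was not used for Slc25a46, an outer membrane protein of mitochondrial dynamics, and Slc25a51, the NAD carrier. Their Slug peaks, with scores of 59.9 and 73.0, lay at the low-coordinate end and their Snail peaks, with scores of 1108 and 1100, at the high-coordinate end.

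Requiring a score of at least 100 left 7 members with a Slug peak within 1 kb (14.9%, against 4.72% of all genes) and 19 within 10 kb (40.4%, against 24.8%). Snail then had 39 (83.0%, against 45.7%) and 41 (87.2%, against 58.8%). Both factors at that score were found at 7 members within 1 kb (against 3.18%) and 17 within 10 kb (36.2%, against 18.4%), and an overlapping pair within 10 kb at 5 (10.6%, against 5.37%). When peaks anywhere inside the gene were counted as well as those within 1 kb, 24 members had Slug (51.1%, against 40.4%) and 23 had both (48.9%, against 31.1%).

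**Figure D4:**
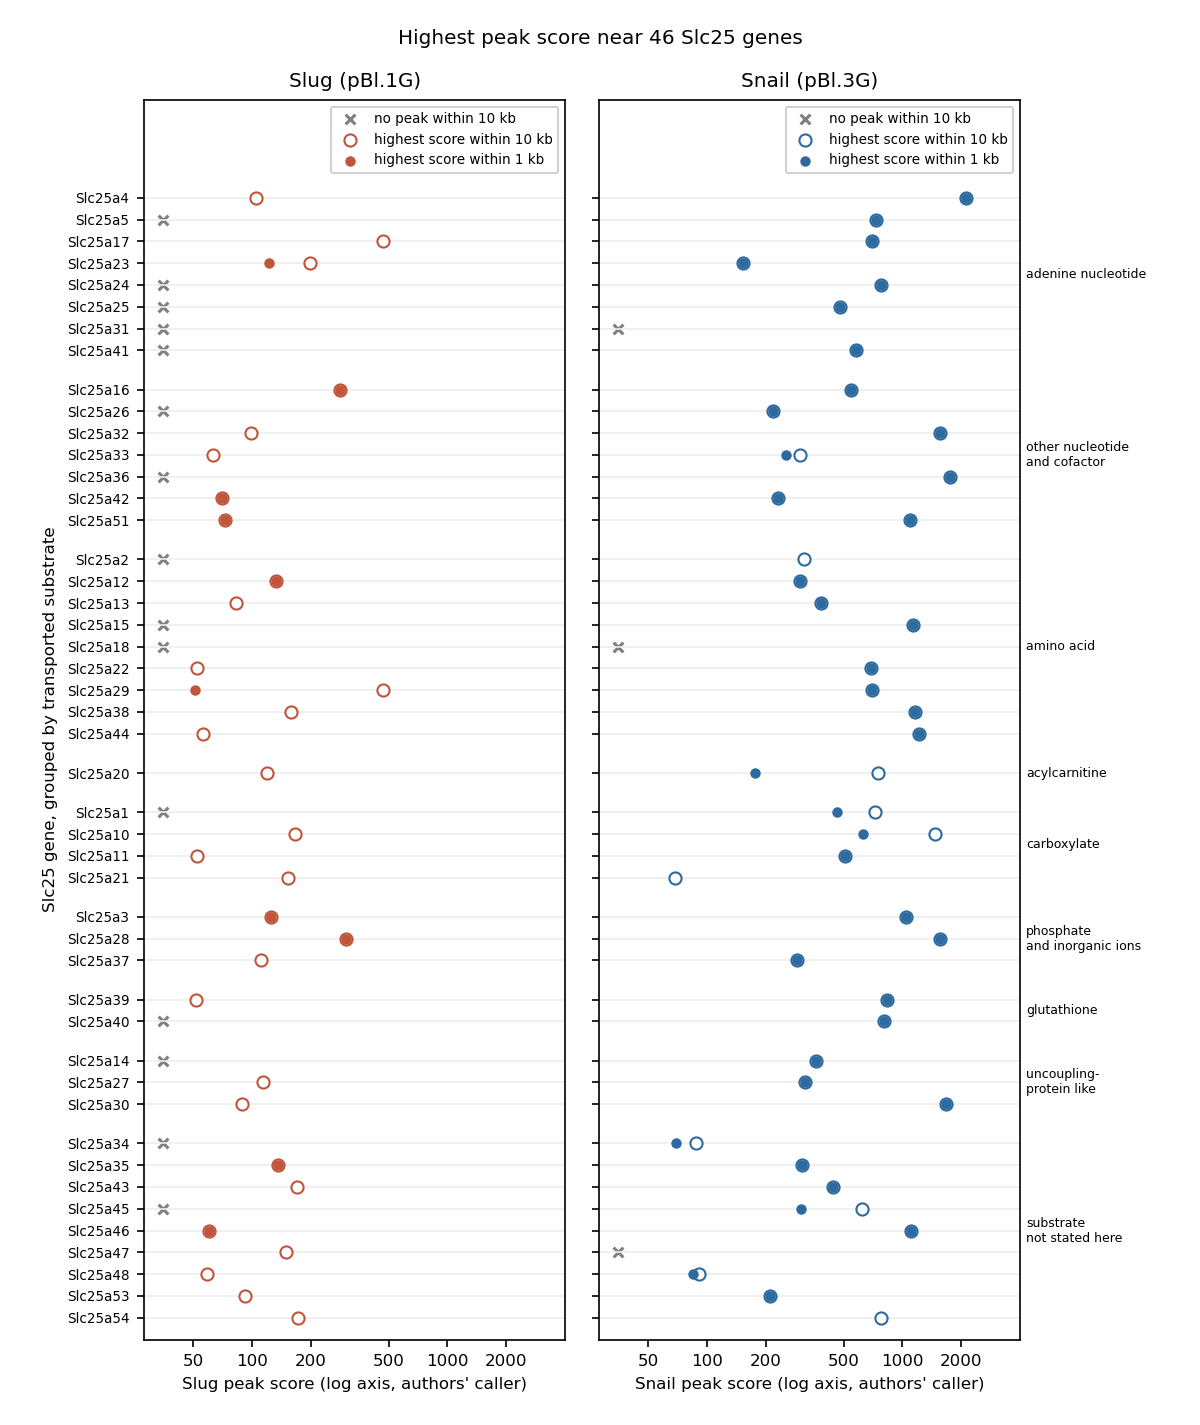
Highest peak score near each of 46 Slc25 genes, grouped by transported substrate, on log axes for Slug (left) and Snail (right): filled points are peaks within 1 kb of a gene end, open circles the highest within 10 kb, and crosses mark no peak within 10 kb. Of the genes drawn, 40 have a filled Snail point and 10 a filled Slug point.

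The 8 carriers of adenine nucleotides included the gene with the highest Snail score of the family. Slc25a4, the ADP/ATP carrier of heart and muscle, had a Snail peak over its start, chr8:46210744-46211571 with a score of 2108, among the highest 0.518% of Snail peaks. A second Snail peak, of score 225, lay 5.97 kb upstream, and a Slug peak of score 105 lay between them, 4.47 kb upstream. Slc25a5, the ADP/ATP carrier of proliferating cells, had Snail peaks of 733 at its start and 284 beyond its other end, and no Slug peak within 10 kb. Slc25a31, the germ cell ADP/ATP carrier, had no peak of either factor within 10 kb or inside the gene. The 3 paralogues thus ran from the highest Snail score of the family to no peak. In their printed promoters CAGGTG is found once, in Slc25a5, with its first base at -129 from the start. Slc25a4 holds CCGGAAG and 2 CCAAT boxes, and Slc25a31 none of the motifs searched for capitals. Slc25a54, which had no Snail peak within 1 kb either, holds CAGGTG and CCGGAAG in its promoter window, which is not printed.

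The ATP-Mg/phosphate carriers, which adjust the adenine nucleotide content of mitochondria, all 4 had Snail peaks within 1 kb, against 48.7% of all genes. Their highest scores were 153 at Slc25a23, 776 at Slc25a24, 482 at Slc25a25 and 578 at Slc25a41. Slug peaks were found near Slc25a23 alone, with scores of 122 and 197, while Slc25a25 had one deeper inside, of score 63.5, that overlapped a Snail peak of 134. The Slug peak of 197 lay 2.26 kb outside Slc25a23 and within 1 kb of an end of Crb3. The Snail peak within 1 kb of Slc25a41 also lay within 1 kb of an end of Khsrp, so it could not be given to 1 of these genes. Slc25a24 has a tandem neighbour, Slc25a54, 6.57 kb away. Slc25a54 had no Snail peak of its own: the one counted for it within 10 kb is the start peak of Slc25a24. It had 2 Slug peaks, of 173 upstream and 53.0 inside, and no Slug peak lay within 10 kb of Slc25a24. Slc25a17, a peroxisomal member, had a Snail score of 701 at its start and a Slug peak of 467 beyond its far end, chr15:81308883-81309258, the second highest Slug score of the family.

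All 8 carriers of other nucleotides and cofactors had a Snail peak within 1 kb (against 48.7% of all genes), and 4 had a Slug peak there (50%, against 12.1% of all genes and 23.4% of the family). Slc25a36 and Slc25a33, which carry pyrimidine nucleotides, differed. Slc25a36 had a single Snail peak, chr9:97110413-97111581 over its start, scored at 1759, without any Slug peak within 10 kb. Slc25a33 had Snail scores of 254 at its start, 300 at the end of its neighbour Tmem201 and 50.2 inside, and a Slug peak of 63.2 inside. Slc25a33 is the one of the 2 whose printed promoter holds the E-box core, written there as its reverse complement with its first base at -91. Slc25a32, the folate carrier, had a Snail score of 1559 at an end that it shares with Dcaf13, and a Slug peak of 98.9 inside the gene. Slc25a26, the carrier of S-adenosylmethionine, had a Snail score of 218 and a Slug peak of 203 that lay 21049 bp inside.

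Of the 9 amino acid carriers 7 had a Snail peak within 1 kb (77.8%, against 48.7% of all genes) and 6 a Slug peak within 10 kb (66.7%, against 47.6% of all genes and 68.1% of the family). The highest Slug score of the whole family belonged to Slc25a29, 469 at chr12:108838537-108839235, which is 3.01 kb upstream of its start and among the highest 3.08% of Slug peaks. The aspartate/glutamate carriers Slc25a12 and Slc25a13 were alike in having modest Snail scores at their starts, 300 and 383, and several Slug peaks inside long genes. Slc25a12 had 7 Slug peaks in the gene body, with 1 of score 252 overlapping a Snail peak of 77.6, and Slc25a13 had 3, the highest also at 252 and 75348 bp from the start. The ornithine carriers differed: Slc25a15 had a Snail score of 1132 at its start and no Slug peak, while Slc25a2, the shortest member at 1346 bp, had only a Snail peak of 313 next to Taf7. The glutamate carriers differed as well. Slc25a22 had 4 Snail peaks within 10 kb, the highest at 695 and also at an end of Pidd1, and a Slug peak of 52.5. Slc25a18 had no peak of either factor. Slc25a38, the glycine carrier needed for haem synthesis, and Slc25a44, the carrier of branched-chain amino acids, had Snail scores of 1161 and 1213; the latter peak also lay at an end of Pmf1.

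Among the 4 carboxylate carriers and the acylcarnitine carrier Snail peaks lay within 1 kb of all but Slc25a21, where 48.7% of all genes have one. Slug peaks within 1 kb were at none of these few genes, and 12.1% of all genes have one. Slc25a1, the citrate carrier that feeds fatty acid synthesis, had Snail scores of 463 over its start and 721 on the other side, and no Slug peak within 10 kb. Slc25a10, the dicarboxylate carrier, had 3 Snail peaks within 1 kb, the highest at 632, and one of 1477 within 10 kb, which lies within 1 kb of ends of both Hgs and Mrpl12. Its Slug peaks scored 166 and 56.0. Slc25a11, the oxoglutarate carrier, shared its Snail peak of 507 with Rnf167. Slc25a21, the oxodicarboxylate carrier and the longest member at 484839 bp, had no peak of either factor within 1 kb and an overlapping pair of small peaks, 153 for Slug and 68.9 for Snail, 5.08 kb beyond its far end. Slc25a20, the carnitine/acylcarnitine carrier, had a Snail score of 175 at its start and a Slug peak of 119 near its far end.

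All iron, glutathione and uncoupling-type carriers had Snail peaks within 1 kb, where 48.7% of all genes have one. Slc25a37 (mitoferrin 1, the erythroid iron carrier) had Snail and Slug peaks that did not overlap, the highest within 10 kb at 288 and 111, whereas its paralogue Slc25a28 had the overlapping site described above. The glutathione carriers had similar Snail scores, 839 at Slc25a39 and 803 at Slc25a40, the latter shared with Dbf4. Slc25a39 also had an overlapping pair of low-scoring peaks 8.37 kb beyond its far end, Slug at 51.8 and Snail at 51.2. Among the uncoupling-protein-like genes Slc25a30 had a Snail score of 1665 over its start, chr14:75786434-75787497, the third highest of the family. Slc25a14 and Slc25a27 had 363 and 318, the latter shared with Cyp39a1. Inside Slc25a30 a Slug peak of 89.3 overlapped a Snail peak of 50.05, and near Slc25a27 the highest Slug score was 113.

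The remaining 9 members, for which no substrate is given here, had a median highest Snail score within 1 kb of 304, over the 7 with such a peak, against 578 in the whole family. Slc25a34 (69.6, at an end shared with Tmem82) and Slc25a48 (85.3) were the lowest of the family within 1 kb. Slc25a43 had 439, Slc25a45 had 304 and Slc25a53 had 210. Their highest Slug scores within 10 kb were 169 at Slc25a43, 92.1 at Slc25a53 and 59.0 at Slc25a48, with none at Slc25a34 and Slc25a45. Slc25a47, a liver carrier, had a Slug peak of 149 (chr12:108848116-108848507), 1.52 kb outside its low-coordinate end, and no Snail peak.

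Some Snail peaks could not be given to a single gene. In 10 of the 41 members with a Snail peak within 1 kb (24.4%) at least 1 such peak also lay within 1 kb of an end of another protein-coding gene, and in 7 (17.1%) every such peak did. Over all genes with a Snail peak there the shares were 28.7% and 25.2%. None of the 11 members with a Slug peak within 1 kb shared it in this way, against 21.3% of all such genes. Members also adjoin each other in 4 places: Slc25a29 and Slc25a47, Slc25a41 and Slc25a23, Slc25a54 and Slc25a24, and Slc25a43 and Slc25a5.

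The promoter sequences were described by motif content over the 46 windows of 300 bases from 36 members; windows of 1 gene can overlap. CAGGTG, on either strand, was in 9 windows (19.6%), against 19.7% of all 21263 windows of protein-coding genes. The general E-box CANNTG, which includes it, was in 73.9%, against 69.0%. CCGGAAG was in 15.2%, against 11.6%, and CCAAT in 47.8%, against 38.2%. AAGGTCA, the core site of oestrogen-related receptors, was in 1 window (2.17%, against 4.08%), AAGATGG, the core bound by YY1, in 2 (4.35%, against 6.24%) and the consensus site of nuclear respiratory factor 1 in none (against 1.33%). Of the 36 windows with a Snail peak within 1 kb of the start, 6 (16.7%) held CAGGTG, and of the 10 without, 3 did. Over all genes the shares were 16.8% with and 22.7% without such a peak. CCAAT was in 44.4% of the member windows with such a peak and 60% of those without (38.6% and 37.7% over all genes). For CCGGAAG these shares were 16.7% and 10% (20.2% and 2.86% over all genes). Windows with a Snail peak held a median of 16.5 CpG dinucleotides, against 7 in the member windows without. Over all genes these medians were 22 and 4. These matches are of letters only and do not show that a factor binds there.

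Genes that work with the carriers were counted from lists set by name. All 10 genes of the carrier import path lay within 1 kb of Snail (against 48.7% of all genes), at a median highest score of 713, near the 722 of all genes with such a peak. Slug peaks within 10 kb were found at 3 of them (30%), below the 47.6% of all genes: Timm29, Tomm40 and Tomm22, with scores of 52.9, 63.6 and 53.8. Of 18 other mitochondrial membrane transporters 17 had a Snail peak within 1 kb (94.4%, against 48.7% of all genes), Sfxn3 being the exception. A Slug peak lay within 10 kb of 7 (38.9%, 20.3 to 61.4, against 47.6% of all genes). The Slug intervals of both lists include the share of all genes. For these transporters Abcb10 had a Slug score of 963, and Mpc2, a subunit of the pyruvate carrier, had a Slug score of 508 and a Snail score of 1726 within 1 kb. Of the 5 family genes under other symbols 3 had a Snail peak within 1 kb (60%, 23.1 to 88.2), an interval that includes the 48.7% of all genes. A Slug peak lay within 10 kb of 2 (40%, against 47.6%) and within 1 kb of 0 (against 12.1%). Among these 5 genes Mtch2 had the highest Snail score, 1826. Ucp1, the uncoupling protein of brown fat, had no peak of either factor within 10 kb. The adjoining genes Ucp2 and Ucp3 share their highest peaks within 10 kb: 1 Snail peak of score 411, which is within 1 kb of Ucp2 only, and 1 Slug peak of score 90.1.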

How the data were processed

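Of 4 samples, 2 ChIP libraries had a peak list and 2 input DNA libraries were not used here. Per the labels' protocols, fixation was with 1% formaldehyde (10 min), and DNA was sonicated to about 200 to 500 bp. Per the submitters' processing notes, the tools were Bowtie and MACS 1.4.2 and the build mm10. Caller settings, and whether input served as control: not given in the sources used here. The value deposited per peak is a score from the authors' peak caller, on a scale the files do not state.

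Peak starts were converted to 1-based positions. Midpoints were measured to both ends of RefSeq genes (GRCm38.p6). Peaks overlapping by at least 1 bp were called overlapping. Strand and starts came from the RefSeq promoter table, which matched 36 members. Python 3.11.15, numpy 2.4.6, pandas 2.3.3, scipy 1.17.1 and matplotlib 3.10.9 were used, and the assignment was tested on simulated peaks. With 1 library per factor no test was possible; the main counts are set beside all protein-coding genes. The members and lists were chosen with earlier results of these data known. 1 member enters all counts but is not reported here by name; positions were given for members with a Slug peak within 1 kb, the highest Snail and Slug scores, and paralogues. The planned protein comparison was not run.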

Additional observations from a re-analysis of the deposited data

How the results depend on the processing

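No paired analysis was possible because each factor has 1 library and no result comes from a test. Counts were recomputed under other choices, over 7 results: members with Slug within 1 kb and 10 kb, Snail within 1 kb and 10 kb, both factors within 1 kb and 10 kb, and an overlapping pair within 10 kb (11, 32, 41, 44, 11, 31 and 10 members). All 7 stayed within 1.5 times when any base of a peak counted, when both lists held 28375 peaks, and without the 100 highest-scoring peaks of each list. A score of at least 100 gave 7 and 19 for Slug, 7 and 17 for both factors and 5 for pairs. Annotated starts only, known for 36 members, gave 4 and 16 for Slug (against 10.3% and 35.9% of all genes), 4 and 14 for both factors (8.42% and 26.9%) and 6 for pairs (11.8%); fewer genes enter there. Counting gene bodies raised Slug within 1 kb to 24 and both to 23. A reciprocal overlap of 50% left 2 pairs (4.26%, against 2.30%). Both Snail counts stayed within 1.5 times in each setting run on them. Depth is unknown, so a missing peak does not show that a factor was absent.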
